A study of Mus musculus with 4 samples.

Results

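The muscle actins and the contractile genes of smooth muscle were followed in embryonic stem cell (ESC) cultures differentiated towards the cardiac lineage. The group held 10 genes, chosen by name, and all 10 were found among the 24637 genes of the deposited table. They were the striated muscle actins *Actc1* and *Acta1*, the smooth muscle actins *Acta2* and *Actg2*, the actin-associated genes *Tagln*, *Cnn1*, *Smtn* and *Lmod1*, the smooth muscle myosin heavy chain gene *Myh11*, and the myosin light chain kinase gene *Mylk*. Messenger RNA was sequenced from 4 libraries, 2 from WT lines (genotype Taf4+/+) and 2 from lines labelled Taf4a-/- (genotype Taf4-/-), a comparison made to ask whether the TFIID subunit Taf4 is needed for cardiomyocyte differentiation. The paper names 2 WT and 2 null ESC lines, derived from blastocysts of heterozygous crosses. The labels give replicate numbers only, so the line behind each library is not known. All lines were kept on inactivated mouse embryonic fibroblast feeders with LIF, grown for 5 days as embryoid bodies, and then cultured for 9 days on gelatin. Between 21732746 and 27733034 reads per library were counted on genes. The cultures are mixtures of cell types, so fewer cells of a type and less RNA per cell cannot be told apart in any value below. Values are normalized counts, that is, reads divided by a size factor of the library.

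*Taf4a* itself, the targeted gene, had 889 (WT replicate 1) and 678 (WT replicate 2) normalized counts, against 1722 and 1799 in libraries labelled Taf4a-/- (1 and 2). Its count covered the whole gene and could not resolve a deleted part, and it was higher in libraries labelled Taf4a-/- (limma log2 difference 1.18 ± 0.16 SE, adjusted p = 0.00569). These values do not check the genotypes, which were taken from the labels.

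Muscle actins form the thin filaments along which myosin pulls. *Actc1* encodes the actin of heart muscle and *Acta1* that of adult skeletal muscle, and both are made in the embryonic heart. *Acta2* is the actin of vascular smooth muscle and *Actg2* that of visceral smooth muscle. In smooth muscle, contraction starts when calcium and calmodulin activate the kinase encoded by *Mylk*, which phosphorylates the regulatory light chain of myosin. Many of these genes are classic targets of the serum response factor Srf, which binds the CArG box in DNA and works with the coactivator myocardin. *Acta2* and *Tagln* are not restricted to smooth muscle, since early cardiomyocytes and activated fibroblasts also make them.

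The promoters of 3 of the muscle actins are shown because they are the classic place of this element and because the log2 fold changes of these 3 genes ranged from -4.58 to -0.89. They are the 250 bases before the RefSeq start (build GRCm38.p6, all on the minus strand), written 5′ to 3′. Capitals mark CArG boxes (CC and GG with 6 bases of A or T between them), CArG-like elements in which 1 of the 6 is G or C, and the motif CATTCC or its reverse complement. The regions are chr2:114052876-114053125 for *Actc1*, chr8:123894776-123895025 for *Acta1* and chr19:34255374-34255623 for *Acta2*.
Actc1: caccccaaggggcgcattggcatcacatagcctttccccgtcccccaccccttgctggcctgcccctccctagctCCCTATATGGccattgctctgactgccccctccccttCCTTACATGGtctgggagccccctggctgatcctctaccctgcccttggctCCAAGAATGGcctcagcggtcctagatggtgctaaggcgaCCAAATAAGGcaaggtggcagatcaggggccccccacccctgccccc
Acta1: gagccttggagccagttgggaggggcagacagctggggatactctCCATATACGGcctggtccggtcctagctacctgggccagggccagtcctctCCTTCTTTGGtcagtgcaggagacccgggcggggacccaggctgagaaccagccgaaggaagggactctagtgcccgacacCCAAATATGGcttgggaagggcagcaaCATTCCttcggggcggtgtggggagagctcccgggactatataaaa
Acta2: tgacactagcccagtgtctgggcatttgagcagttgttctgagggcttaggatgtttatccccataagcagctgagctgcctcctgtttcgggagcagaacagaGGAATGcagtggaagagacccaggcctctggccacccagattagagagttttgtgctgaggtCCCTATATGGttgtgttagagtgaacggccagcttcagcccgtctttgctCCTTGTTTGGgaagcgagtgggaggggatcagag

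*Actc1* had a CArG box from -47 to -38 of the start, CCAAATAAGG, and *Acta1* had one from -73 to -64, CCAAATATGG. *Acta2* had 2 CArG-like elements and no CArG box in this window. *Actc1* had 3 CArG-like elements and *Acta1* had 2. Promoters of 7 of the 10 genes were in the RefSeq table, those of *Actg2*, *Tagln* and *Myh11* were not, and the motifs were searched on both strands in the whole window of 300 bases, from 250 before to 50 after the start. A CArG box was in 2 of the 7 and in 1.63% of all 32851 promoters. A CArG-like element was in 3 of the 7 and in 8.5% of all promoters. The motif CATTCC, which TEAD factors can bind, was in 5 of the 7 and in 14.7% of all promoters. TATAAA, a form of the TATA box, was in *Actc1* and *Acta1* alone among the 7, and in 13.6% of all promoters. Within the *Actc1* window it lay after the annotated start, from 34 to 39. These matches describe letters in the windows and were not tested against expression.

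At an adjusted p-value under 0.05, 6 of the 10 fell in libraries labelled Taf4a-/- and 0 rose. The median log2 fold change of the 10 was -1.88. The background was 17.3% of the 16926 genes tested called lower and 11.3% called higher, with a median of -0.01. That is 2928 lower and 1906 higher, which quantile normalization turned to 2448 and 2676. At an unadjusted p-value under 0.05 the counts were also 6 lower and 0 higher. The matching shares of all genes were not counted, and they are larger than those at an adjusted p-value. Limma's voom on the recovered reads called 5 lower and 0 higher. For 9 of the 10 genes both libraries labelled Taf4a-/- were below both WT libraries, against 36.6% of all genes tested. The 6 genes that fell were *Actc1*, *Actg2*, *Myh11*, *Lmod1*, *Mylk* and *Acta2*. Of these, 5 fell by at least 2 on the log2 scale, against 6.09% of all genes tested, and *Acta2* did not.

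**Figure D1:**
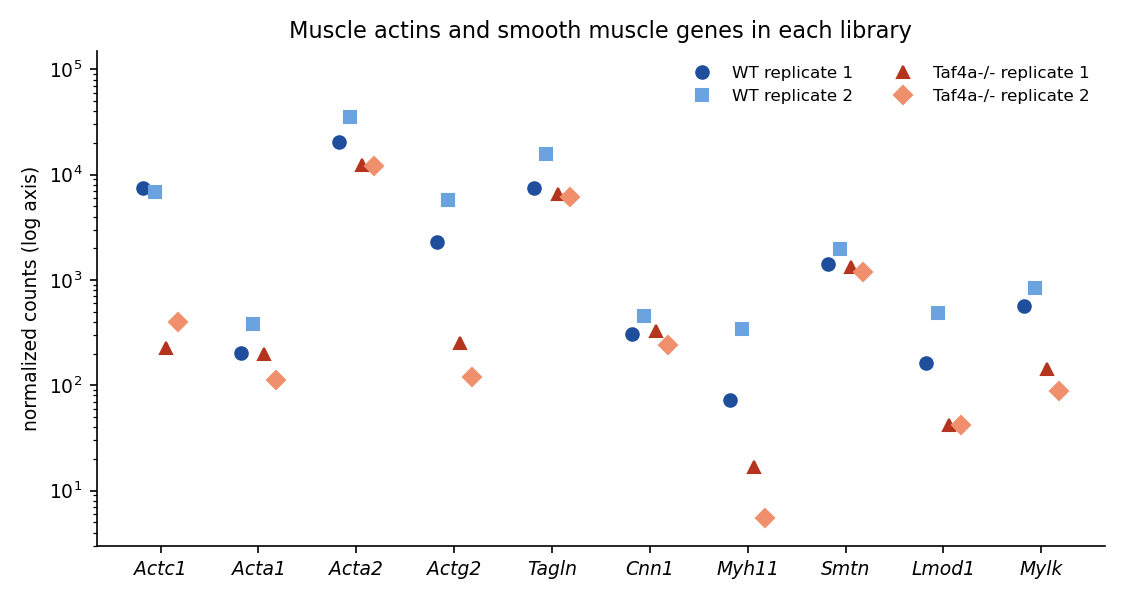
Normalized counts (log axis) of each of the 10 genes in the 4 libraries, with 1 point per library. *Actc1* shows WT libraries close together at 7519 and 6901 and both others at 399 or less, while WT replicate 2 lies above WT replicate 1 for each of the other 9 genes.

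The cardiac actin *Actc1* (ENSMUSG00000068614, NCBIM37 chromosome 2, 113873018 to 113879284, minus strand) had 7519 (WT replicate 1) and 6901 (WT replicate 2) normalized counts. It had 227 in the first and 399 in the second of the libraries labelled Taf4a-/-. The WT libraries were alike and the genotypes were far apart, with a mean of 4.34% of the WT mean left. Limma put the log2 fold change at -4.58 ± 0.26 (SE, adjusted p = 0.000705). Its span overlaps a non-coding gene on the other strand, and they share 0 nt of exons.

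The skeletal actin *Acta1* (ENSMUSG00000031972, chromosome 8, 126415669 to 126418651, minus strand) was a minor transcript, with 202 and 380.3 normalized counts in WT and 197 and 113 in libraries labelled Taf4a-/-. WT replicate 1 and the library labelled Taf4a-/- replicate 1 were nearly level, and the genotypes did not overlap only by that narrow margin. The log2 fold change of -0.89 had a 95% interval from -1.85 to 0.072 and did not pass (adjusted p = 0.14, limma). The log2 ratio of *Actc1* to *Acta1* was 5.21 and 4.18 in WT and 0.21 and 1.81 in libraries labelled Taf4a-/-, so the genotypes did not overlap in this ratio. With 2 libraries against 2, an exact two-sided permutation test of such a ratio cannot give a p-value below 0.333, and 0.333 was its value here.

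*Acta2* (ENSMUSG00000035783, chromosome 19, 34315580 to 34329826, minus strand) was the most abundant of the 10 genes in every library. It had 20618 (WT replicate 1) and 35097 (WT replicate 2) normalized counts, against 12344 and 12138 in libraries labelled Taf4a-/- (1 and 2). Both libraries labelled Taf4a-/- were below WT and close to each other, at a mean of 43.9% of the WT mean. On the log2 scale the difference came to -1.14 ± 0.25 (SE, adjusted p = 0.0231 by limma). This call did not stand when either library labelled Taf4a-/- was left out, with a log2 difference of -1.15 (adjusted p = 0.058) without replicate 1 and of -1.12 (adjusted p = 0.0552) without replicate 2, so its size hardly moved.

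The visceral actin *Actg2* (ENSMUSG00000059430, chromosome 6, 83462899 to 83486259, minus strand) had 2281 and 5723 normalized counts in WT and 252 and 119 in libraries labelled Taf4a-/-. WT replicate 2 had 2.51 times the value of WT replicate 1, but the lower of these was still far above both other libraries. The mean was 4.64% of the WT mean, and with limma, this was a log2 difference of -4.37 ± 0.50 (SE) at an adjusted p of 0.00356. Set against *Acta2*, both *Actg2* and *Actc1* were lower in libraries labelled Taf4a-/-. The log2 ratio of *Actg2* to *Acta2* was -3.18 and -2.62 in WT against -5.61 and -6.66, and that of *Actc1* to *Acta2* was -1.46 and -2.35 against -5.76 and -4.92. For both ratios the genotypes did not overlap and the exact permutation p was 0.333, the smallest possible. The log2 ratio of *Actc1* to *Actg2* did overlap, at 1.72 and 0.27 in WT and -0.15 and 1.73 in libraries labelled Taf4a-/- (exact permutation p = 1.0).

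Per kilobase of merged exons, the 4 muscle actins together came to 17823 and 27899 normalized counts per kb in WT and to 7368 and 7217 in libraries labelled Taf4a-/-. Set against *Actb*, the cytoplasmic beta-actin, this sum was 81.1% and 124% of its level per kb in WT and 35.0% and 33.1% in the others. *Acta2* made up 65.0% and 70.6% of the muscle actin level per kb in WT, and 94.1% and 94.4% in libraries labelled Taf4a-/-. The share of *Actc1* was 26.1% and 15.3% in WT and 1.90% and 3.42% in the others. That of *Actg2* was 8.19% and 13.1% in WT and 2.19% and 1.06% in the others. *Acta1* held from 0.782% to 1.85% in the 4 libraries. What remained of muscle actin RNA in libraries labelled Taf4a-/- was thus nearly all *Acta2*.

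**Figure D2:**
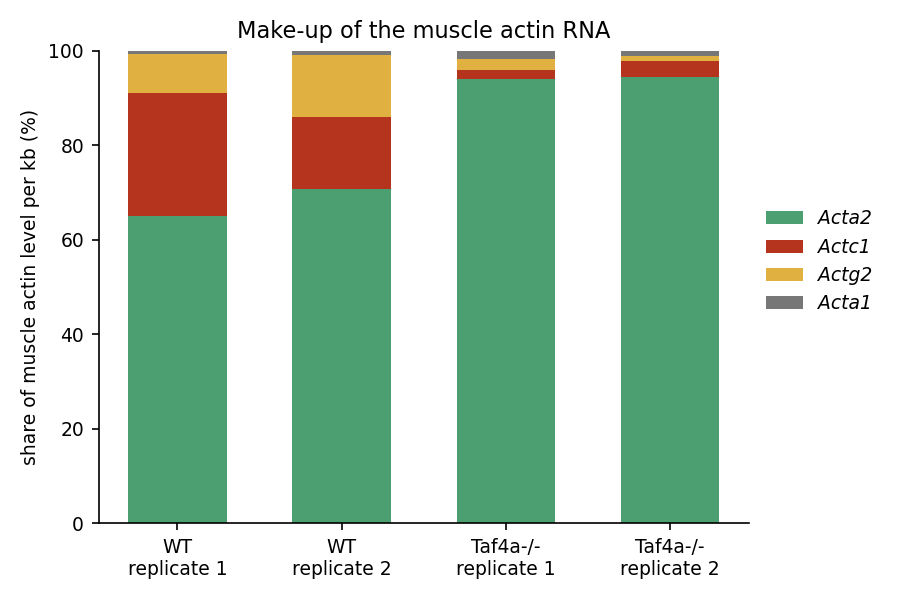
Share of each muscle actin in the summed level per kb of the 4 muscle actins (%, bars stacked to 100), 1 bar per library. *Acta2* takes 65.0% and 70.6% in WT and 94.1% and 94.4% in libraries labelled Taf4a-/-, where the parts of *Actc1* and *Actg2* nearly vanish.

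Actin genes are alike in sequence, so their identity and the exact matches of their exons in the genome were counted. The window counts below do not cover reads with mismatches or reads across exon junctions. The coding sequences of the 4 muscle actins were from 82.5% to 86.2% identical in their 6 pairs, and the longest identical run was 38 nt. Against the cytoplasmic actins *Actb* and *Actg1* they were from 81.5% to 84.8% identical, with a longest run of 77 nt, between *Acta1* and *Actb*. Of all windows of 50 nt within exons, 0% of those of *Actc1* and *Actg2*, 0.52% of those of *Acta2* and 2.81% of those of *Acta1* occurred in a further place of NCBIM37. Of those of *Actb*, used above for comparison, 9.41% did, and of those of *Actg1* 63.8%. *Actg1* was listed at only 429 to 451 normalized counts in the 4 libraries, against 56383 to 60263 for *Actb*. The read length is not given in the sources used here.

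Transgelin, calponin and smoothelin bind actin filaments in smooth muscle and are used as its markers, and leiomodin starts new filaments. *Tagln* (ENSMUSG00000032085, chromosome 9, 45737711 to 45744141, minus strand) had 7513 (WT replicate 1) and 15766 (WT replicate 2) normalized counts, against 6592 and 6165 in libraries labelled Taf4a-/- (1 and 2). WT replicate 2 stood apart, at 2.10 times WT replicate 1, while the latter was only slightly above the other genotype. The log2 fold change of -0.77 (95% interval -1.56 to 0.021) did not pass (adjusted p = 0.125, limma). Without WT replicate 1 it was -1.31 and passed (adjusted p = 0.0124), and without WT replicate 2 it was -0.24 and did not (adjusted p = 0.151). Of its exons 4.1% overlap *Pcsk7* on the other strand, which had 627 to 798 normalized counts, and the kit did not mark strand.

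*Cnn1* (ENSMUSG00000001349, chromosome 9, 21903725 to 21914074, plus strand) was the only gene of the 10 whose genotypes overlapped, with 309 and 452 normalized counts in WT and 331 and 243 in libraries labelled Taf4a-/-. Its log2 fold change of -0.40 had a 95% interval from -1.03 to 0.24 (adjusted p = 0.29, limma). *Smtn* (ENSMUSG00000020439, chromosome 11, 3417526 to 3440615, minus strand) had 1412 and 1962 in WT and 1331 and 1181 in the others. The genotypes were close and did not overlap. The log2 fold change was -0.41 (95% interval -0.85 to 0.037, adjusted p = 0.143, limma), and without WT replicate 1 it was -0.65 and passed (adjusted p = 0.029). Of its exons 16.3% overlap *Gm11946* on the other strand, which had at most 8.85 normalized counts.

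*Lmod1* (ENSMUSG00000048096, chromosome 1, 137221384 to 137264642, plus strand) had 164 and 484 normalized counts in WT and 42.1 and 42.0 in libraries labelled Taf4a-/-. The WT libraries differed 2.95-fold and the other pair hardly at all, and both WT libraries were higher. A mean of 13.0% of the WT mean was left, and limma put the log2 fold change at -2.72 ± 0.50 (SE, adjusted p = 0.0138). So among the 4 actin-associated genes, *Lmod1* fell, and *Tagln*, *Cnn1* and *Smtn* did not pass the test with all 4 libraries.

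*Myh11* (ENSMUSG00000018830, chromosome 16, 14194620 to 14291501, minus strand), which encodes the myosin motor of differentiated smooth muscle, was the lowest of the 10 genes per kb. It had 71.9 (WT replicate 1) and 339.8 (WT replicate 2) normalized counts, from 82 and 327 reads, and 16.6 and 5.53 in libraries labelled Taf4a-/-, from 17 and 5 reads. WT replicate 2 had 4.73 times the value of WT replicate 1, the widest gap between WT libraries in the group, and both were above the other genotype. On the log2 scale the difference came to -3.88 ± 0.82 (SE, adjusted p = 0.02 by limma), and the mean was 5.39% of the WT mean. Without WT replicate 2 the log2 change was -2.76 and did not pass, in a fit with a lone WT library. With voom on the recovered reads *Myh11* did not pass (adjusted p = 0.066). In a limma fit with no variance trend it did not pass either (adjusted p = 0.0673).

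*Mylk* (ENSMUSG00000022836, chromosome 16, 34745296 to 35002520, plus strand) had 566 and 846 normalized counts in WT and 142 and 88.5 in libraries labelled Taf4a-/-. All WT values lay well above the others, and 16.3% of the WT mean was left. With limma, this was a log2 difference of -2.62 ± 0.31 (SE) at an adjusted p of 0.00378. The gene has several transcripts, among them a short form, and the count sums them.

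**Figure D3:**
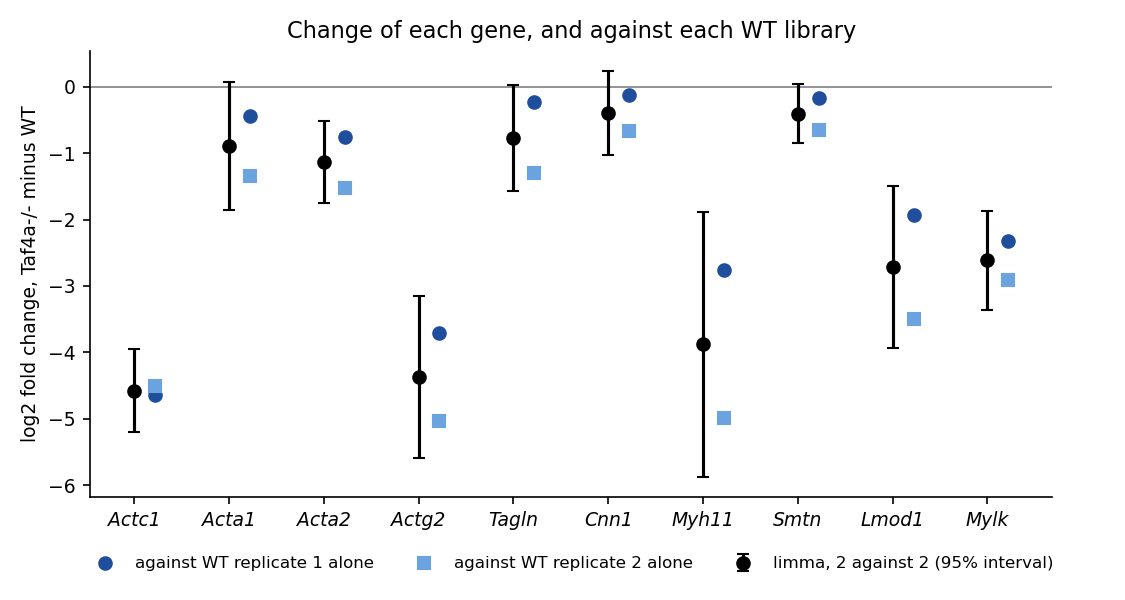
Log2 fold change of each gene, libraries labelled Taf4a-/- minus WT, with black points and bars for limma's estimate and its 95% interval and coloured points for the same mean set against a single WT library. *Actc1* is at -4.64 and -4.51 against WT replicates 1 and 2, whereas *Tagln* is at -0.24 and -1.31 and *Myh11* at -2.76 and -4.99.

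Ordered by their mean level per kb in WT, the 10 genes ran from *Acta2* (15641 normalized counts per kb) through *Tagln* (7339), *Actc1* (4456), *Actg2* (2562), *Smtn* (385), *Acta1* (201), *Cnn1* (161), *Lmod1* (82.1) and *Mylk* (66.4) to *Myh11* (31.0). Several neighbours did not differ beyond the spread of the WT libraries. *Acta1* ranged per kb from 139 to 263 and *Cnn1* from 130.3 to 191, while *Lmod1* ranged from 41.5 to 123 and *Mylk* from 53.3 to 79.6. In the libraries labelled Taf4a-/- *Acta2* (6873) and *Tagln* (4022) were still first and second, but *Smtn* (287) came next, ahead of *Actc1* (194), *Cnn1* (121), *Actg2* (119), *Acta1* (107), *Mylk* (10.8), *Lmod1* (10.7) and *Myh11* (1.67). The order of *Actc1*, *Cnn1*, *Actg2* and *Acta1* by these means was not that of either library, since *Actg2* was highest of the 4 in replicate 1 (161) and lowest in replicate 2 (76.5). *Mylk* was above *Lmod1* in replicate 1 (13.4 and 10.7) and below it in replicate 2 (8.32 and 10.6).

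The WT libraries differed mostly in one direction across the group. WT replicate 2 was above WT replicate 1 in 9 of the 10 genes, all but *Actc1*, with a median log2 difference of 0.84. Over all genes tested WT replicate 2 was above in 51.8%, with a median of 0.017, and 2.89% were at least 2-fold above. In this group *Actg2*, *Tagln*, *Myh11* and *Lmod1* were at least 2-fold above. In libraries labelled Taf4a-/- replicate 2 was below replicate 1 in 9 of the 10 genes, with -0.31 as the median on the log2 scale, and in 49.1% of all genes tested. *Actc1* was again the exception, with 0.81.

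**Figure D4:**
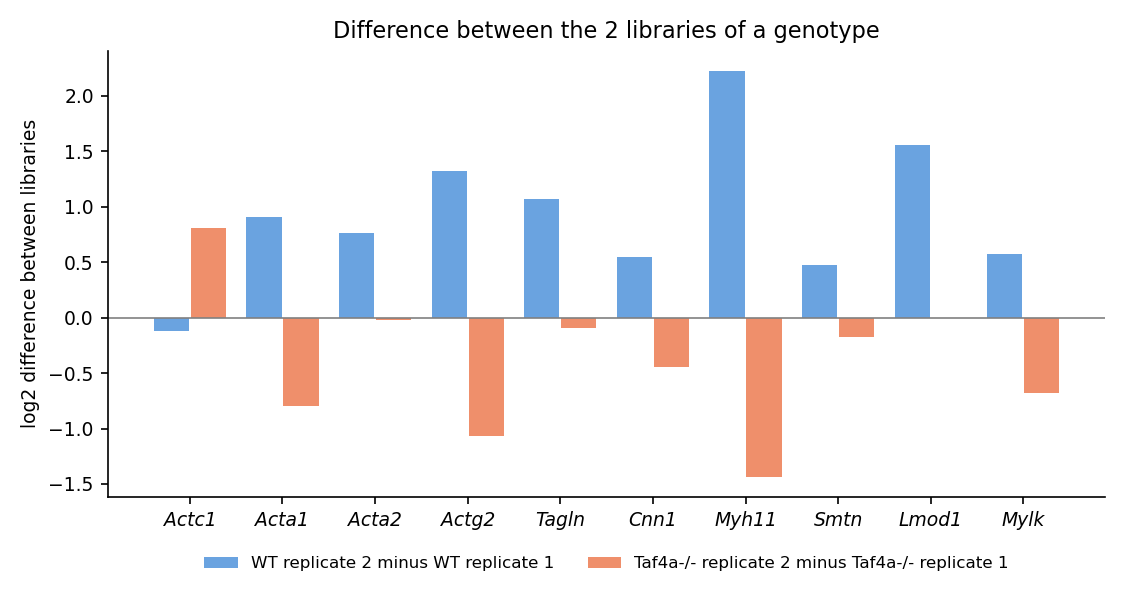
Log2 difference between the 2 libraries of a genotype (replicate 2 minus replicate 1) for each gene, with WT in blue and Taf4a-/- in orange. WT bars point up for 9 genes, with *Myh11* highest at 2.22, and the bar of *Actc1* points down at -0.12.

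The lists that follow were drawn up for this tissue with earlier results of these data known, and each is described by its counts beside the background of 17.3% of genes lower and 11.3% higher. That background is for adjusted p-values. Counts without adjustment have a larger background, which was not counted. Of 32 other genes listed for the smooth muscle contractile apparatus, 13 fell and 0 rose, and the median log2 fold change was -0.70. This list also held cytoskeletal, adhesion and channel genes, and *Des* was in both this list and the pericyte markers. Voom also called 13 and 0, and 18 and 0 passed an unadjusted p-value under 0.05. The 3 largest falls among the genes called were of *Myl9*, the regulatory light chain of smooth muscle myosin, of *Pgm5* (aciculin), a protein of adherens junctions, and of *Nexn* (nexilin), which binds actin filaments. *Myl9* had 2325 and 4329 normalized counts in WT and 398 and 296 in libraries labelled Taf4a-/- (log2 difference -3.20, adjusted p = 0.00228, limma). The log2 differences of *Pgm5* and *Nexn*, which also fell, were -2.47 and -1.86. Here too the WT libraries differed, since WT replicate 2 was above WT replicate 1 in 29 of the 32 genes. Leaving out WT replicate 1 gave 20 genes lower, and leaving out WT replicate 2 gave 5.

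Phosphorylation of the myosin light chain is set by *Mylk* on one side and by a phosphatase on the other. Of 16 genes of this pathway besides *Mylk*, 2 fell and 0 rose, while voom called 2 lower and 1 higher. Without adjustment (p-value under 0.05), 4 were lower and 4 higher, with no matching share of all genes to set beside them. The median of -0.00076 became 0.059 with equal totals per library and 0.025 with quantile normalization. The 2 that fell were *Ppp1r12b*, a targeting subunit of myosin phosphatase (log2 fold change -1.18, adjusted p = 0.00969, limma), and *Ppp1r14a*, an inhibitor of that phosphatase (-1.10, adjusted p = 0.0148). Without WT replicate 2 neither passed, and the count was 0.

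Among 14 regulators related to Srf and myocardin, 5 fell and 1 rose, and their median was -0.30. *Srf* had 2240.0 and 2185 normalized counts in WT and 1812 and 1697 in libraries labelled Taf4a-/-, and its log2 difference of -0.34 did not pass (adjusted p = 0.071, limma). *Myocd*, which encodes myocardin, had 428 and 431 in WT and 143 and 114 in the others. Its WT libraries were nearly equal, unlike those of the smooth muscle genes, and limma put the log2 fold change at -1.74 ± 0.21 (SE, adjusted p = 0.00381). The myocardin-related factors *Mkl1* and *Mkl2* had values of 0.047 and 0.30 and did not pass (adjusted p = 0.795 and 0.0957, limma). The other large falls were of *Hopx* (-2.01) and *Fhl2* (-1.76), and *Prrx1*, a homeobox gene of mesenchyme, rose by 1.09 (adjusted p = 0.00326, limma).

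The listed paralogues of the group were split, with 7 of 14 tested lower and 1 higher, and a median of -0.37. By voom the counts were the same, and without WT replicate 2 there were 4 lower. The cytoplasmic actin *Actb* had 58876 and 60263 normalized counts in WT and 56383 and 58384 in libraries labelled Taf4a-/-, a log2 difference of -0.054 (95% interval -0.47 to 0.36, adjusted p = 0.835, limma) that was 0.0057 with equal totals per library and 0.32 with quantile normalization. Relatives that work in heart muscle fell. *Lmod2*, the leiomodin of heart muscle, had 50.8 and 53.0 normalized counts in WT and 5.87 and 4.42 in the others (log2 fold change -3.12, adjusted p = 0.0056, limma). *Mylk3*, the light chain kinase of heart muscle, had a log2 fold change of -1.57, and *Lmod3*, a leiomodin of striated muscle, one of -2.22, and both passed. *Tagln2* and *Cnn2*, which many non-muscle cells make, fell by 1.17 and 1.46 on the log2 scale, beside values of -0.77 for *Tagln* and -0.40 for *Cnn1* that did not pass. The differences between these paralogues were not tested. *Smtnl2* fell by 0.62 and *Myh14*, a non-muscle myosin, by 1.89. *Cnn3* and *Tagln3* had values of 0.064 and -0.13, and the non-muscle myosins *Myh9* and *Myh10* had 0.57 and 0.47, none of which passed. *Smtnl1* was the gene that rose, from 7.89 and 5.20 normalized counts to 29.4 and 61.9 (log2 fold change 2.56, adjusted p = 0.019, limma). *Mylk2* had at most 2.08 normalized counts in any library and was not tested.

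**Figure D5:**
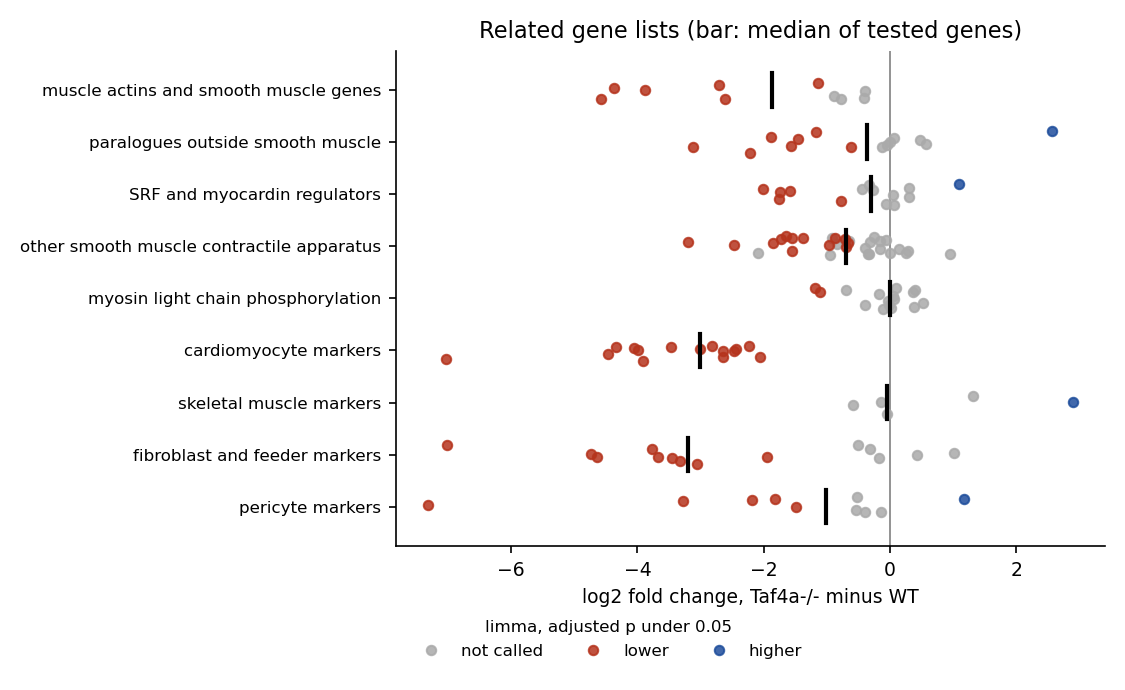
Log2 fold change (libraries labelled Taf4a-/- minus WT) of each tested gene of the group and of 8 related lists, 1 point per gene, coloured by limma's call at an adjusted p-value under 0.05, with a bar at each median. The group has its median at -1.88, the cardiomyocyte markers at -3.00 and the fibroblast markers at -3.20, while the light chain phosphorylation genes lie around 0.

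Many, but not all, markers of other cell types that can express these genes also differed between the genotypes. Of the cardiomyocyte markers 15 of 15 tested fell, at a median of -3.00 on the log2 scale, and 1 of the 16, *Tnnc1*, had at most 0.88 normalized counts in any library. Whether reads of *Tnnc1* were missed in the counting was not tested. The summed level of the cardiomyocyte markers was 32451 to 32834 normalized counts in WT and 3918 to 4686 in libraries labelled Taf4a-/-. This sum was nearly equal in the WT libraries, but its members were not. *Myh7* was at 8300 (WT replicate 1) and 3443 (WT replicate 2), while *Myh6* was at 4763 and 6706, both being myosin heavy chains of the heart. *Tnnt2* had 2730.1 and 3281 in WT and 484 and 470.0 in the others, and *Nkx2-5* had 302 and 198 against 50.9 and 28.8. *Pln*, which encodes phospholamban, had 269 and 246 normalized counts in WT and 2.94 and 0 in the others, and *Myl2* and *Myl7*, light chains of heart myosin, had log2 fold changes of -4.46 and -4.35.

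Fibroblast and feeder markers were lower in 9 of 14 and higher in 0, with a median of -3.20 (8 and 0 by voom, and 9 and 1 without adjustment). Their summed level was 515418 and 728868 in WT replicates 1 and 2 and 186710.0 and 206001 in libraries labelled Taf4a-/-. Collagen genes and *Fn1* made up much of this sum. *Fn1* had 83244 and 130583 in WT and 136047 and 142736 in the others. Its log2 fold change of 0.42 and that of 1.01 for *Twist1* did not pass. WT replicate 2 was above WT replicate 1 in 10 of the 14. *Pdgfra*, *Tcf21*, *Prrx2* and *Twist1* went the other way, with *Twist1* at 1587 and 628. *Lum*, *S100a4* and *Dcn* fell, with log2 fold changes of -7.01, -4.73 and -4.63. Pericyte markers were lower in 5 of 10 and higher in 1, with a median of -1.01 and a summed level of 17739 and 19725 in WT and 14643 and 16216 in the others. *Pdgfrb* had 3465 and 2528 normalized counts in WT and 1981 and 2118 in the others (adjusted p = 0.0624, limma). *Vtn*, *Cspg4* and *Kcnj8* had log2 fold changes of -7.32, -3.27 and -2.19, and *Rgs5* rose by 1.17 (adjusted p = 0.0341, limma). *Vtn* had 317 and 1207 normalized counts in WT and 0.98 and 6.64 in the others, from 1 and 6 reads. *Cspg4* had 89.4 and 180 in WT and 7.83 and 18.8 in the others, from 8 and 17 reads.

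Markers of skeletal muscle were scarce. Of 18 listed genes 16 were found and 5 reached the level for testing, of which 0 fell and 1 rose, and the counts were the same by voom and without adjustment. The median of the 5 was -0.044, and it was 0.014 with equal totals per library and 0.31 with quantile normalization. *Myod1* had 6.14 and 1.04 normalized counts in WT and 0 in both others, and *Myog* at most 9.64 in any library. *Mylpf*, a fast skeletal light chain, rose from 63.1 and 66.5 to 412 and 573 (log2 fold change 2.89, adjusted p = 0.00151, limma). The part of these cell types in the levels of *Acta2*, *Tagln* and the other genes was not tested.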

How the data were processed

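Messenger RNA was sequenced from 4 libraries, 2 WT and 2 labelled Taf4a-/-. Per the labels, the authors mapped reads to mm9 with TopHat 1.3.3, and HTSeq 0.5.3p1 and DESeq are named for the further steps. The annotation release and the read length are not given in the sources used here. They deposited read counts per gene divided by a size factor of the library. Every value was a whole multiple of its library's smallest positive value (within 0.01), so reads could be recovered, with 21732746 to 27733034 per library.

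The genotypes were compared with limma 3.58.1 (R 4.3.3, lmFit and trended eBayes) for genes with a mean of at least 10. The scale was log2(value + 1), which understates changes of low genes. Benjamini-Hochberg adjustment covered all genes tested, and the threshold was 0.05. Nothing pairs the replicate numbers, and the test measures the spread between 2 libraries a genotype. Differences of line and of culture cannot be told apart in that spread. The recovered reads were tested with limma's voom, and no other count test was run on them. The script was tested on simulated data. The genes and lists were chosen with earlier results of these data known. Named from each list were up to 3 called falls and 3 called rises of largest size, the paralogues of the group, *Srf*, *Myocd*, *Mkl1*, *Mkl2* and the defining markers of other cell types. *Tnnt2*, *Tnnc1*, *Myh6*, *Myh7*, *Fn1*, *Twist1*, *Pdgfra*, *Tcf21* and *Prrx2* were chosen after their values were seen. Exon lengths, overlaps and windows came from NCBIM37 with GENCODE M1, and promoters from RefSeq on GRCm38.p6. Python 3.11.15, Biopython 1.88 and matplotlib 3.10.9 were used.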

Additional observations from a re-analysis of the deposited data

How the results depend on the processing

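The alternatives were other pseudocounts, filters, scalings, a fit with no variance trend, a stricter threshold, a replicate block, voom on the recovered reads, and leaving out each library; edgeR, DESeq2 and TMM scaling were not run. Over 14 settings no log2 fold change of the 10 genes or of *Taf4a* reversed. The count of the 10 genes lower, 6, was 3 when the variance trend was dropped (adjusted p of 0.0781 for *Acta2*, 0.0673 for *Myh11* and 0.0516 for *Lmod1* in limma). It was also 3 at a threshold of 0.01, and *Actc1*, *Actg2* and *Mylk* passed in every setting. It was 5 to 8 with one library left out, where a lone library was assumed to vary like the other genotype. Counts of listed genes lower moved as follows. For the other smooth muscle contractile genes, 13, the count was 8 when the variance trend was dropped, 7 at a threshold of 0.01 and 5 to 20 with one library left out. At a threshold of 0.01 the counts were 4 for the paralogues, 1 for light chain phosphorylation and 3 for pericyte markers. With one library left out they were 4 to 6 for the paralogues and 0 to 3 for light chain phosphorylation. The cause was not tested. Over all genes the 2928 lower and 1906 higher became 1741 and 856 with the variance trend dropped, and 1119 and 331 at a threshold of 0.01. With one library left out they were 1453 to 3106 lower and from 600 to 2558 higher. Quantile normalization moved the median of all genes from -0.01 to 0.11. With the replicate number as a block the count of the 10 genes lower was 6 and no call among them changed; the correlation of same-numbered deviations was 0.012, so the numbers were not taken to pair libraries. With 2 libraries a genotype, changes within the WT spread could not be shown.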
